A study of Homo sapiens with 12 samples.

Results

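Lysosomal enzymes and membrane proteins were followed in MOLM-13, a human acute myeloid leukemia (AML) cell line that carries the MLL-AF9 fusion. The 43 members are the soluble hydrolases, their activators, the membrane proteins, 4 proton pump proteins and the regulator TFEB. They were chosen by gene symbol from the list of the module, and their transcript rows were summed per symbol. All 43 were found among the 46639 symbols of the deposited table. RNA-seq covered 12 libraries, 3 each of untreated cells and of cells given 100 nM decitabine (DAC), 1 µM all-trans retinoic acid (ATRA) or both (DAC+ATRA). DAC inhibits DNA methylation, and ATRA activates retinoic acid receptors. All groups grew in RPMI with 20% FCS and 5 ng/ml GM-CSF, a myeloid growth factor. The study's methods give a lower share of FCS for all its cell lines and mention no GM-CSF, so the sources differ on the medium. Per the labels, DAC was renewed with the medium on 3 days and treated cells were taken at 72 h, whereas the untreated libraries carry 96 h. The design text and the study's methods name 72 h for the harvest, so the sources disagree. If 96 h is right, time and treatment cannot be told apart in any comparison with untreated cells. The study's methods place ATRA with the last DAC pulse. No vehicle control was among the libraries, and the series' design text calls the MOLM-13 triplicates technical, so every p-value below measures the spread within a single experiment on a single cell line.

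Lysosomes are acidic organelles in which proteases, glycosidases, sulfatases, lipases and phosphatases break down macromolecules. The V-ATPase pumps protons into the lumen, and heavily glycosylated proteins such as LAMP1 and LAMP2 line the membrane. TFEB is a transcription factor that binds the CLEAR element, a short palindrome in the promoters of many lysosomal genes. Monocytes, macrophages and granulocytes are rich in lysosomal hydrolases.

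Promoter windows from 250 bases before to 50 bases after a start site (RefSeq, GRCh38.p14) were found for 30 of the 43 members. The E-box core CACGTG, which reads the same on both strands, was present in 10 of them, or 33.3%, against 12.6% of the 8542 tested genes with a window. A gene was counted if any of its windows held the letters. By window, the core was in 21.7% of 46 member windows and 9.48% of 12193 windows of tested genes. The longer palindrome TCACGTGA, which contains that core, was present in 5 members, or 16.7%, against 2.31% of the tested genes. Other lysosomal genes outside the module held them at similar shares, 31.5% and 15.1% of 73 with a window. The stretches just upstream of a RefSeq start site of 6 members are shown because they hold these letters next to genes with contrasting responses. Capitals mark each whole CACGTG. The CTSA and CTSD stretches lie within the GENCODE spans of these genes, and those of GAA and ATP6V0D1 overlap theirs in part.
LAMP1, chr13:113297039-113297238, plus strand: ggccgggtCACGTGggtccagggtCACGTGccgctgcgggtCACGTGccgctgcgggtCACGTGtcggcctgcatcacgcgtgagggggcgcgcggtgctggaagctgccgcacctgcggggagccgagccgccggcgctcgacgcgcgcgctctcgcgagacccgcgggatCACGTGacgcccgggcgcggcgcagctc
ATP6V0D1, chr16:67481158-67481237, minus strand: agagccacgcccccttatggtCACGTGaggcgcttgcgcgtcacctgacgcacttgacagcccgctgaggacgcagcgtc
CTSD, chr11:1763928-1764007, minus strand: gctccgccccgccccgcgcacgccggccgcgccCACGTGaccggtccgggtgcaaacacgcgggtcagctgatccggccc
CTSA, chr20:45891255-45891334, plus strand: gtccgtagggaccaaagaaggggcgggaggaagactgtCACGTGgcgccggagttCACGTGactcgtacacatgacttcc
GAA, chr17:80101501-80101580, plus strand: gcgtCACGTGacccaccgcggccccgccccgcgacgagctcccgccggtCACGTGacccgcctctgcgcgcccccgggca
MCOLN1, chr19:7522544-7522623, plus strand: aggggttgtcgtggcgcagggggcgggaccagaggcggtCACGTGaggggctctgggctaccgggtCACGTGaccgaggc
The LAMP1 stretch holds 5 whole cores, those of MCOLN1, GAA and CTSA hold 2 each, and those of CTSD and ATP6V0D1 hold 1 each. A match of letters is a description and not a measured binding site.

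Recovered reads ranged from 4.67 to 11.9 M per library (M, mega), and both DAC-treated groups were shallower than the others. Of 8 AML markers, 7 had at least 10 normalised counts in every library. The T cell gene TRAC stood at 497 to 537 normalised counts in untreated and 304 to 331 in DAC. TRAC fell to 15.0 to 23.3 in ATRA and 7.15 to 20.3 in DAC+ATRA. CD3D, of the same list, lay below untreated in ATRA only. It stood at 11.9 to 22.7 in untreated, 17.4 to 37.6 in DAC, 2.51 to 10.8 in ATRA and at least 19.4 in DAC+ATRA. CD2 was listed at 0 throughout, CD3E reached 2.04 at most and CD3G 3.27. The summed fibroblast list stood at 4.87 to 10.7 in untreated and 64.5 to 86.3 in ATRA, all of it COL1A1, as COL1A2, COL3A1 and DCN were listed at 0. Of the B cell list, MS4A1 and PAX5 were listed at 0, and the sum ranged from 2.51 to 5.68 in untreated and from 26.6 to 39.8 in DAC+ATRA, almost all of it CD79A. In bulk RNA, fewer cells of a type and less RNA per cell cannot be told apart.

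Several libraries, DAC replicate 3 the most, stood apart from their groups with the GC content of the transcripts. Across 10487 genes, Spearman's rho between GC content and the deviation of DAC replicate 3 from the other DAC libraries was -0.54, and over the 39 members with a GC value it was -0.62. In ATRA replicate 1 the values were -0.24 and -0.41, and in untreated replicate 1 they were -0.28 and -0.41. Untreated replicate 3 lay the other way, at 0.28 and 0.36. So did DAC replicate 1, at 0.49 and 0.54, though DAC replicate 3 was among the libraries it was set against. Genes share a library, so no p-value is given. The members' median GC content was 53.8%, against 48.2% of tested genes. The protease gene CTSA was among the most extreme members. It held 87.8 and 76.8 normalised counts in DAC replicates 1 and 2 and 14.2 in replicate 3, a log2 deviation of -2.46. The median deviation of the 39 members in DAC replicate 3 was -0.19, with 25 below 0. The GC-rich CTSZ deviated by 0.32, and whether GC content accounts for the drops was not tested. Counts are therefore also given without DAC replicate 3 and ATRA replicate 1, a choice made after seeing the data. Untreated replicates 1 and 3 and DAC replicate 1 were kept in those fits. Their trends over all genes were larger in size than that of ATRA replicate 1.

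**Figure D1:**
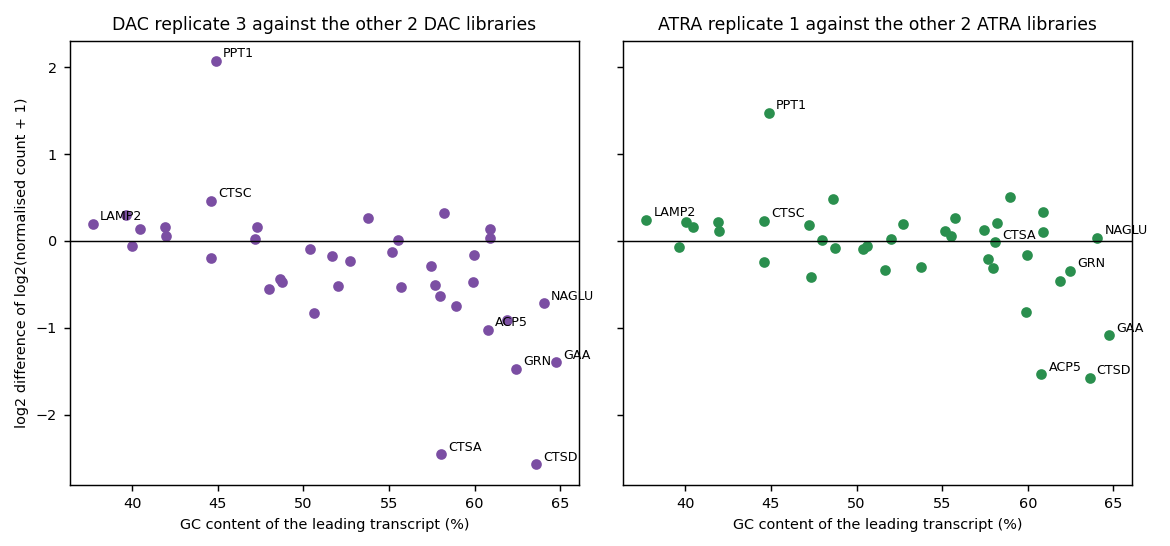
Each point is 1 of 39 members; the x axis gives the GC content (%) of its leading transcript and the y axis its log2 difference from the other 2 libraries of the group. CTSD and GAA, both GC-rich, lie below 0 in DAC replicate 3 and in ATRA replicate 1, whereas the GC-rich MAN2B1 lies above 0 in both.

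Of the 43 members, 40 reached 10 normalised counts in 3 or more libraries and were tested. The glycosidase gene NEU1 held at most 3.14 normalised counts and the protease gene LGMN at most 1.27. CD68, a macrophage marker with 2 transcript rows, was listed at 0 in all 12 libraries, which says nothing of its true level because reads that fit several transcripts appear not to have been counted. For the same reason levels are lower limits and are compared between libraries, not between genes. A change in transcript use between groups could also move a summed value, which was not tested. CTSD had reads in 1 of 6 transcript rows and GRN in 1 of 3.

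Members were raised by each treatment, most by the combination, and 0 of the 40 tested fell against untreated cells. A member was called at an adjusted p under 0.01 in limma with Benjamini-Hochberg adjustment over 10642 genes. DAC raised 7 of 40 members, against a background of 7.97% of all genes called, 4.29% higher and 3.67% lower. ATRA raised 20, against 26.0% called, 12.1% higher and 14.0% lower. DAC+ATRA raised 28, against 28.9% called, 14.5% higher and 14.4% lower. The 28 include ACP5, which reached 10 normalised counts only in its DAC+ATRA libraries. The median log2 fold change over the tested members was 0.47 with DAC, 0.62 with ATRA and 0.97 with DAC+ATRA, while the medians over all genes were 0.00, -0.04 and 0.00. Without DAC replicate 3 and ATRA replicate 1, 14, 22 and 28 members were called, with 1650, 3353 and 3858 of all genes. All 3 treated libraries lay above all untreated libraries for 16 members with DAC (16.1% of all genes), 27 with ATRA (24.1%) and 32 with DAC+ATRA (28.1%), and below them for 0, 4 and 0 members (14.2%, 26.6% and 27.6%). The 3 comparisons share the untreated libraries.

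**Figure D2:**
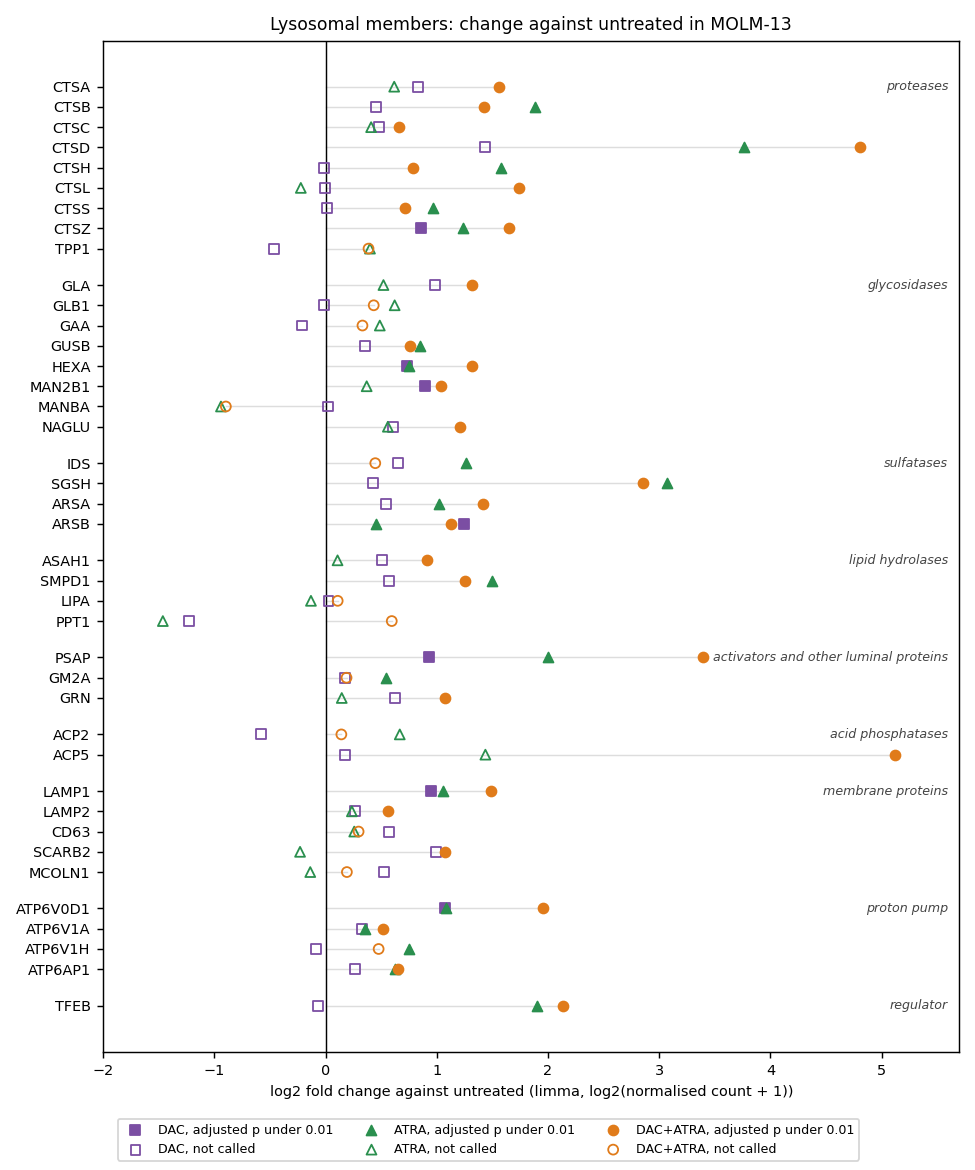
The x axis gives the log2 fold change against untreated of each tested member, grouped by role; squares stand for DAC, triangles for ATRA and circles for DAC+ATRA, and filled symbols are called at an adjusted p under 0.01. All 28 filled circles lie to the right of 0, with CTSD at 4.80. ACP5 is drawn at a fitted value that depends on the pseudocount, as its untreated libraries held at most 3 reads.

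By pattern, 11 members rose with ATRA and with the combination but were not called with DAC, among them TFEB, CTSB, CTSD, CTSH and SGSH. A further 10 were called with the combination alone, 6 rose in all 3 comparisons (ARSB, ATP6V0D1, CTSZ, HEXA, LAMP1 and PSAP), 3 with ATRA alone (ATP6V1H, GM2A and IDS) and 1, MAN2B1, with DAC and the combination. The other 9 were called in none. These groupings rest on the threshold, and a member missing it in a comparison is not shown to differ between drugs. The share of all genes in each pattern was not computed. Of all genes, 7.97% were called with DAC, 26.0% with ATRA and 28.9% with DAC+ATRA, so calls with DAC were fewer there too.

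TFEB (chr6:41683978-41736259, minus strand) held 19.4, 26.0 and 30.7 normalised counts in untreated and 25.4, 28.2 and 18.5 in DAC. It held 86.9, 84.1 and 120 in ATRA and 98.0, 116 and 127 in DAC+ATRA. All 6 libraries with ATRA thus lay above the 6 without it. In limma ATRA changed it by 1.90 ± 0.25 (log2, SE, adjusted p = 4.92e-06), and the combination did so by 2.13 ± 0.25 (adjusted p = 1.22e-06). With DAC it was -0.07 ± 0.25 (adjusted p = 0.889). DAC+ATRA against ATRA gave 0.23 ± 0.25 (adjusted p = 0.55). The leading transcript row, ENST00000394283.5, averaged 17.7, 18.9, 77.6 and 91.9 in untreated, DAC, ATRA and DAC+ATRA.

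Among the proteases, 1 of 9 tested members was called with DAC (4.29% of all genes called higher). With ATRA 5 were called (12.1%) and with DAC+ATRA 8 (14.5%). CTSD, the main lysosomal aspartic protease (chr11:1752752-1764573, minus strand), held 21.0, 31.7 and 37.6 normalised counts in untreated, 154, 141 and 23.9 in DAC, 197, 593 and 585 in ATRA and 812, 755 and 982 in DAC+ATRA. Its lowest values within DAC and within ATRA came from DAC replicate 3 and ATRA replicate 1. ATRA gave a log2 fold change of 3.76 ± 0.50 (limma, adjusted p = 6.51e-06). DAC+ATRA gave 4.80 ± 0.50 (adjusted p = 3.11e-07). Without the 2 libraries the ATRA value was 4.28.

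CTSB, a cysteine protease, held 467, 459 and 449 normalised counts in untreated, 733, 585 and 579 in DAC, 1450, 1874 and 1796 in ATRA and 1152, 1192 and 1353 in DAC+ATRA. The combination lay below ATRA in every library. The ATRA change was 1.89 ± 0.12 (log2, limma, adjusted p = 3.61e-10), and that of the combination was 1.42 ± 0.12 (adjusted p = 2.37e-08). CTSH, an aminopeptidase of the same family, was also lower in the combination than in ATRA, with 283, 301 and 240 in untreated, 326, 251 and 244 in DAC, 898, 738 and 834 in ATRA and 441, 490 and 488 in DAC+ATRA. It rose by 1.58 ± 0.14 with ATRA (adjusted p = 2.15e-08) and was the 1 member that fell in DAC+ATRA against ATRA, by 0.80 ± 0.14 on the log2 scale (adjusted p = 0.000337).

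CTSL, a cysteine endopeptidase (chr9:87724051-87731469, plus strand), was highest in the combination. It held 51.3, 50.3 and 42.7 normalised counts in untreated, 54.7, 51.8 and 38.1 in DAC, and 39.4, 36.5 and 47.7 in ATRA. In DAC+ATRA it held 172, 154 and 162, above all 9 other libraries. The log2 fold change was 1.74 ± 0.21 (limma, adjusted p = 1.79e-06) with the combination and -0.22 ± 0.21 (adjusted p = 0.44) with ATRA. CTSZ, a carboxypeptidase, rose in every treatment, from 1905, 1925 and 1729 in untreated to 3178, 3044 and 3896 in DAC, 4794, 3968 and 4380 in ATRA and 5665, 5874 and 5870 in DAC+ATRA. Its log2 fold changes were 0.86, 1.24 and 1.65, each with an SE of 0.11 (limma, adjusted p from 1.61e-05 to 4.17e-10). CTSS, which trims peptides for antigen presentation, rose by 0.96 ± 0.11 with ATRA and 0.71 ± 0.11 with DAC+ATRA. TPP1, a tripeptidyl peptidase, was called in none of the comparisons against untreated.

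**Figure D3:**
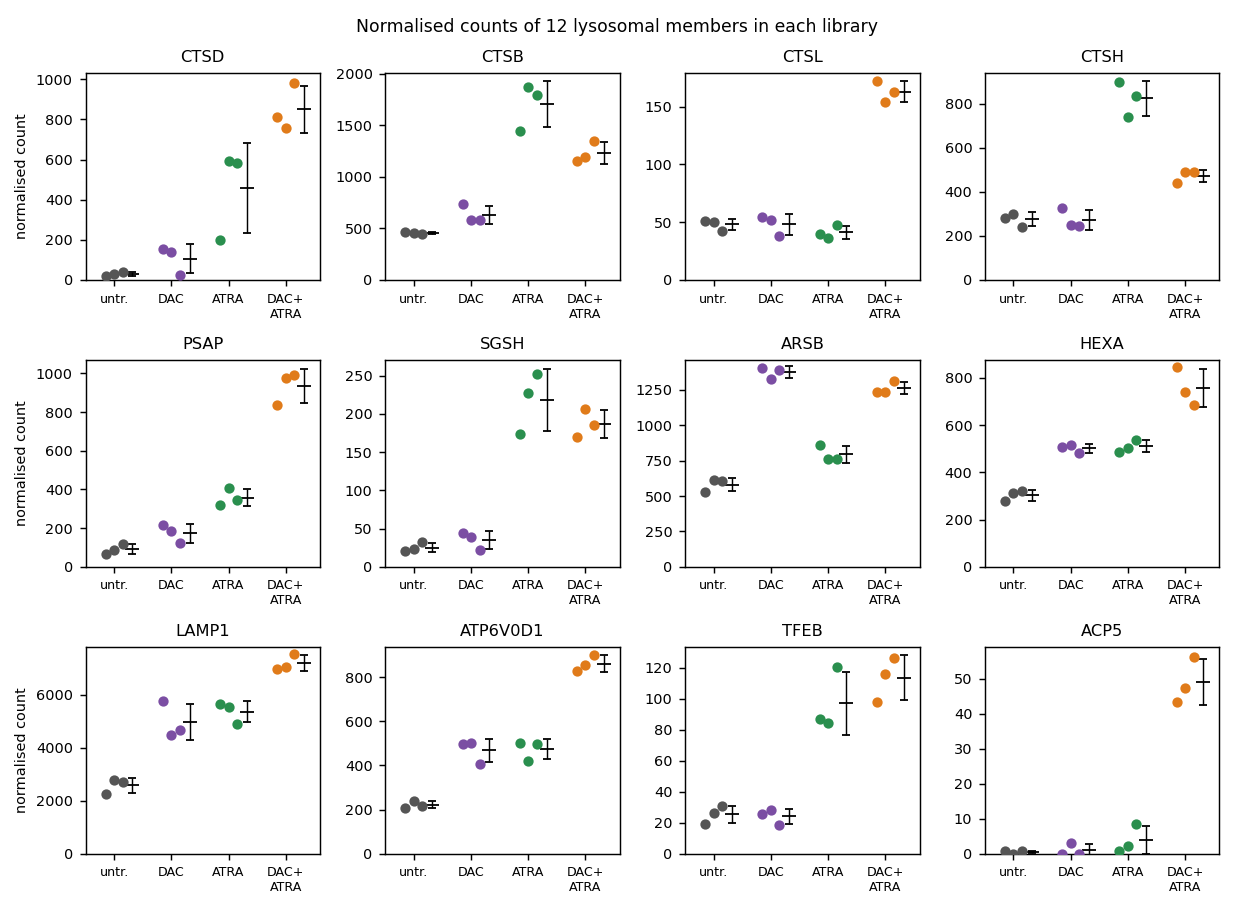
Points are the normalised counts of single libraries of 12 members in untreated (untr.), DAC, ATRA and DAC+ATRA, with the mean and SD (n = 3) beside them; each y axis starts at 0. CTSL and ACP5 are high in DAC+ATRA, TFEB and SGSH in both groups with ATRA, and ARSB in both groups with DAC.

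Among the glycosidases, 2 of 8 tested members were called with DAC (4.29% of all genes called higher). With ATRA 2 were called (12.1%) and with DAC+ATRA 5 (14.5%). HEXA, a hexosaminidase, held 278, 312 and 320 normalised counts in untreated, 506, 518 and 481 in DAC, 488, 503 and 538 in ATRA and 847, 738 and 686 in DAC+ATRA. The DAC and ATRA libraries overlapped, and every combination library lay above both. Its log2 fold changes were 0.73, 0.75 and 1.32, each with an SE of 0.12. MAN2B1, an alpha-mannosidase, rose with DAC, from 368, 349 and 263 to 667, 513 and 641, and held 486, 381 and 393 in ATRA and 734, 608 and 655 in DAC+ATRA. Its log2 fold change was 0.90 ± 0.15 (limma, adjusted p = 0.000332) with DAC and 0.37 ± 0.15 (adjusted p = 0.0596) with ATRA. The beta-galactosidase GLB1, the alpha-glucosidase GAA and the beta-mannosidase MANBA were not called against untreated.

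All 4 sulfatases rose with ATRA (12.1% of all genes called higher), 1 rose with DAC (4.29%) and 3 with DAC+ATRA (14.5%). Of the 12 fits that left out a library, the ATRA call was lost in 3 for ARSA and in 1 for ARSB. SGSH, which removes sulfate from heparan sulfate (chr17:80206716-80220923, minus strand), held 21.0, 22.7 and 32.0 normalised counts in untreated, 44.5, 39.2 and 21.8 in DAC, 174, 228 and 252 in ATRA and 169, 206 and 185 in DAC+ATRA. The 2 groups with ATRA overlapped and lay above the rest, with log2 fold changes of 3.07 ± 0.25 (limma, adjusted p = 1.01e-08) and 2.86 ± 0.25 (adjusted p = 2.99e-08). ARSB, which acts on dermatan and chondroitin sulfate, had its highest mean with DAC. It held 526, 611 and 603 in untreated, 1407, 1327 and 1387 in DAC, 862, 762 and 759 in ATRA and 1237, 1235 and 1314 in DAC+ATRA. Its log2 fold change with DAC was 1.25 ± 0.10 (limma, adjusted p = 1.08e-07), the largest of the 7 members called there. IDS, the iduronate sulfatase, held 17.9, 17.9 and 25.7 in untreated, 35.6, 37.6 and 25.0 in DAC, 56.4, 43.2 and 51.0 in ATRA and 29.4, 22.5 and 32.7 in DAC+ATRA, and was called with ATRA alone (1.26 ± 0.28, adjusted p = 0.0012).

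Of 4 lipid hydrolases, 1 was called with ATRA (12.1% of all genes called higher) and 2 with DAC+ATRA (14.5%). SMPD1, the acid sphingomyelinase, held 8.55, 23.5 and 15.7 normalised counts in untreated, 22.9, 23.5 and 20.7 in DAC, 40.3, 54.3 and 37.6 in ATRA and 37.8, 32.6 and 39.8 in DAC+ATRA. It rose by 1.50 ± 0.32 with ATRA (limma, adjusted p = 0.000999). The acid ceramidase ASAH1 was called with DAC+ATRA (0.91 ± 0.25, adjusted p = 0.00631), a call lost in 4 of the 12 fits that left out a library, and the acid lipase LIPA ranged from 444 to 610 over all libraries and was not called. PSAP, the precursor of the saposins that present lipids to these enzymes (chr10:71816298-71851251, minus strand), held 66.9, 86.1 and 118 in untreated, 215, 185 and 121 in DAC, 320, 406 and 344 in ATRA and 834, 975 and 992 in DAC+ATRA. The 4 groups did not overlap and stood in that order. Its log2 fold changes were 0.93, 2.00 and 3.39, each with an SE of 0.20 (limma, adjusted p = 0.00388, 2.27e-07 and 1.32e-10), and the DAC call was lost in 4 of the 12 fits that left out a library. GM2A, the GM2 activator, rose with ATRA by 0.54 ± 0.12 and GRN, progranulin, with DAC+ATRA by 1.07 ± 0.30. The GRN call was lost in 6 of those fits, with DESeq2 and with a replicate block, and the GM2A call in 1 fit.

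ACP5, the tartrate-resistant acid phosphatase of osteoclasts and macrophages (chr19:11574653-11579993, minus strand), held 0.778, 0 and 0.627 normalised counts in untreated and 0, 3.14 and 0 in DAC, at most 3 reads in each library. It held 0.896, 2.23 and 8.36 in ATRA and 43.4, 47.3 and 56.2 in DAC+ATRA. The combination was at least 22.1-fold higher than untreated and at least 12.5-fold higher than DAC, taking 3 reads per library as the floor. Against ATRA the log2 fold change was 3.69 ± 0.69 (limma, adjusted p = 0.000747). With a pseudocount of 0.1 that call was lost (limma, adjusted p = 0.041). ACP5 reached 10 normalised counts only in DAC+ATRA and was tested through those libraries alone. Its p-values, and its place in the counts of members that rose in DAC+ATRA, rest on that selection. ACP2, the other acid phosphatase, was called in no comparison.

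Among 5 tested membrane proteins, 1 was called with DAC (4.29% of all genes called higher). With ATRA 1 was called (12.1%) and with DAC+ATRA 3 (14.5%). LAMP1 (chr13:113297239-113323672, plus strand) held 2258, 2780 and 2701 normalised counts in untreated, 5767, 4494 and 4672 in DAC, 5652, 5527 and 4917 in ATRA and 6972, 7064 and 7544 in DAC+ATRA. Its log2 fold changes were 0.95, 1.06 and 1.48, each with an SE of 0.11 (limma, adjusted p = 8.89e-06, 3.83e-07 and 3.88e-09). LAMP2 held 3554, 3461 and 3258 in untreated, 3801, 4044 and 4503 in DAC, 4506, 4123 and 3522 in ATRA and 5107, 4874 and 5184 in DAC+ATRA. It was called with DAC+ATRA alone (0.56 ± 0.10, adjusted p = 0.000256), and its 2 main transcript rows were both highest there, at 3908 for ENST00000371335.4 and 1126 for ENST00000200639.9, from 2747 and 662 in untreated. CD63, a tetraspanin of late endosomes and lysosomes, held 803, 1080 and 809 in untreated, 1590, 1388 and 1037 in DAC, 1073, 967 and 1153 in ATRA and 1074, 1083 and 1117 in DAC+ATRA, and was not called (DAC, 0.57 ± 0.14, adjusted p = 0.0108). Without DAC replicate 3 and ATRA replicate 1 the DAC value was 0.74 (adjusted p = 0.0001). SCARB2, the receptor that carries beta-glucocerebrosidase to lysosomes, rose with DAC+ATRA by 1.08 ± 0.27, a call lost in 5 of the 12 fits that left out a library, and the calcium channel MCOLN1 was not called.

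All 4 proton pump members rose with ATRA (12.1% of all genes called higher), 1 with DAC (4.29%) and 3 with DAC+ATRA (14.5%). ATP6V0D1, a subunit of the membrane sector (chr16:67438014-67481181, minus strand), held 209, 240 and 218 normalised counts in untreated, 499, 500 and 408 in DAC, 502, 421 and 499 in ATRA and 829, 855 and 903 in DAC+ATRA. Either drug alone gave overlapping levels, and the combination lay above both. Its log2 fold changes were 1.07, 1.09 and 1.95, each with an SE of 0.12 (limma, adjusted p = 5.79e-06, 8.27e-07 and 2.37e-10). The ATRA changes of ATP6V1A, the catalytic subunit, ATP6V1H and ATP6AP1 were smaller, at 0.35, 0.75 and 0.63. Their ATRA calls were lost in 5, 1 and 5 of the 12 fits that left out a library, and that of ATP6V0D1 in 0.

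Set beside the promoter letters, the responses differed. Of the 10 members with CACGTG, ACP5, ARSB, ATP6V0D1, CTSA, CTSD and LAMP1 rose with DAC+ATRA, CD63, GAA and MCOLN1 were not called against untreated, and NEU1 was not tested. These 6 of 9 tested stand beside 28 of 40 members (70.0%) and 14.5% of all genes called higher. For ACP5, ARSB and CD63 the core lay in only 1 of several windows. ACP5 was also tested only through its DAC+ATRA libraries. The CTSA call was lost in 9 of the 12 fits that left out a library.

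DAC+ATRA was next compared with either drug alone. Against DAC, 15 of 40 members rose and 0 fell (18.8% of all genes called, 9.04% higher and 9.74% lower), with a median of 0.55. The 15 included 7 of 9 proteases, PSAP (2.46 ± 0.20), SGSH (2.43 ± 0.25) and TFEB (2.20 ± 0.25). Against ATRA, 8 rose and 1 fell (11.9% called, 6.47% higher and 5.46% lower), with a median of 0.29. The 8 were ACP5, ARSB, ATP6V0D1, CTSL, HEXA, MAN2B1, PSAP and SCARB2. For 11 members all 3 combination libraries lay above the other 9, which held for 5.16% of all genes. ACP5 is among these 15, 8 and 11 members, and it was tested only through its DAC+ATRA libraries. Without DAC replicate 3 and ATRA replicate 1, 19 and 17 members were called, with 2168 and 1929 of all genes in place of 1998 and 1270.

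The interaction tests whether DAC+ATRA equals the DAC change plus the ATRA change in log2 units. Among 40 members 2 were called, 1 above and 1 below, against 1.6% of all genes (0.724% above, 0.874% below), and its median was -0.18, with 24 members below 0. Over all genes the median was 0.03, with 53.7% above 0. CTSL lay above the sum by 1.98 ± 0.29 (limma, adjusted p = 0.000451) and CTSB below it by a log2 difference of -0.92 ± 0.17 (adjusted p = 0.00392). The CTSL call remained in each of the 12 fits that left out a library, and the CTSB call was lost in 6. The next 3 members by p all lay below the sum and missed the threshold. They were CTSH (-0.78 ± 0.19, adjusted p = 0.027), ARSB (-0.58 ± 0.14, adjusted p = 0.0289) and IDS (-1.47 ± 0.39, adjusted p = 0.0409). ACP5, whose fitted value depends on the pseudocount, followed above the sum (adjusted p = 0.054). Without DAC replicate 3 and ATRA replicate 1, 6 members and 421 of all genes were called.

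**Figure D4:**
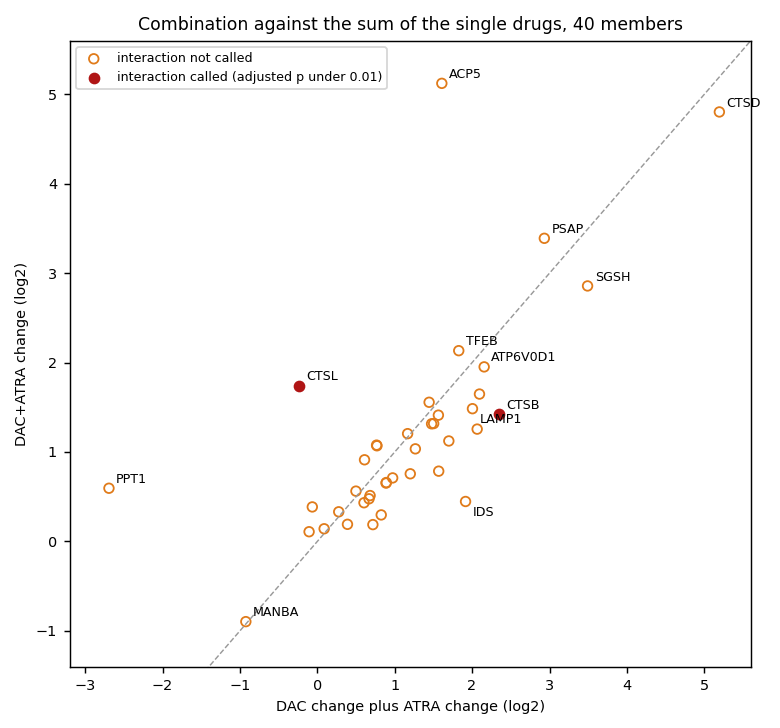
Each point is a tested member; the x axis gives the DAC change plus the ATRA change against untreated and the y axis the DAC+ATRA change (all log2), with the dashed line where both are equal. CTSL lies above the line and CTSB below it, both called, and 24 of 40 members lie below the line.

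A list of other lysosomal genes outside the module was read for context. Of 78 tested, 11 rose and 1 fell with DAC, 21 rose and 3 fell with ATRA, and 27 rose and 2 fell with DAC+ATRA, with medians of 0.14, 0.27 and 0.32. Of all genes, 4.29% were called higher and 3.67% lower with DAC, 12.1% and 14.0% with ATRA, and 14.5% and 14.4% with DAC+ATRA. The medians over all genes were -0.004, -0.04 and -0.004. The fucosidase FUCA1 held 1029, 1033 and 1009 normalised counts in untreated, 2542, 2553 and 2957 in DAC, 2178, 2240 and 2358 in ATRA and 5265, 5364 and 5555 in DAC+ATRA, a log2 fold change of 2.40 ± 0.09 with the combination (limma, adjusted p = 2.22e-13).

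The carboxypeptidase CPVL held 13.2, 7.31 and 4.39 in untreated, 45.8, 18.8 and 21.8 in DAC, 19.7, 9.67 and 18.4 in ATRA and 23.8, 31.5 and 30.6 in DAC+ATRA. Its DAC call (limma, adjusted p = 0.0097) was lost in 9 of the 12 fits that left out a library, and its DAC+ATRA call in 3. The potassium channel TMEM175 held 25.7, 25.2 and 30.1 in untreated, 43.3, 54.9 and 41.4 in DAC, 95.0, 103 and 102 in ATRA and 82.6, 91.2 and 100.1 in DAC+ATRA. SCPEP1, a serine carboxypeptidase, held 1520, 1685 and 1453 in untreated, 2713, 3019 and 3135 in DAC, 4259, 4559 and 4376 in ATRA and 4715, 4553 and 4463 in DAC+ATRA. Not every hydrolase rose. The sialate esterase SIAE fell with ATRA, from 37.3, 36.5 and 33.2 to 15.2, 6.70 and 9.20, and held 50.9, 59.6 and 45.7 in DAC and 15.4, 24.8 and 20.4 in DAC+ATRA. The cysteine protease CTSF fell in every treatment, from 202.2, 199.7 and 202.0 in untreated to 99.2, 92.5 and 98.0 in DAC, 86.9, 128 and 125 in ATRA and 58.8, 64.2 and 55.1 in DAC+ATRA, a log2 fold change of -1.75 ± 0.18 with the combination (limma, adjusted p = 1.92e-07).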

How the data were processed

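RNA of 12 MOLM-13 libraries was measured by strand-specific RNA-seq after ribosomal depletion. The authors used STAR for alignment to hg38, htseq-count for counting per transcript and DESeq2 for normalisation; versions and annotation release are not given in the sources used here. The deposited values are a normalised signal, read counts divided by 1 size factor per library, and 100% of values gave whole reads within 0.01. Columns named CTRL were taken as untreated. The 100502 transcript rows were summed per symbol; biotypes and coordinates came from GENCODE release 44 (GRCh38), which 88.9% of rows matched.

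The test was limma 3.58.1 (R 4.3.3; lmFit, eBayes with trend) on log2(normalised count + 1) of all 12 libraries without covariates, over the 10642 protein-coding genes that reached 10 normalised counts in 3 or more libraries. The pseudocount of 1 makes fold changes of weakly expressed genes too small. The interaction is DAC+ATRA minus ATRA minus the DAC change against untreated. The script was tested on simulated data. Per-library values are given for up to 8 members with the largest change among those called in each comparison with untreated, members called in the interaction, TFEB, LAMP1, LAMP2, CD63 and CD68, and up to 3 other lysosomal genes per comparison, of which 1 is not reported here. DESeq2 1.42.0 and edgeR 4.0.16 on recovered reads, other scalings, pseudocounts, filters and thresholds, a replicate block and leaving out each library were alternatives. Lists of T cell, B cell, erythroid, epithelial and fibroblast markers were also read; no erythroid gene passed 1.02 normalised counts, the B cell sum was at most 39.8 and the epithelial sum at most 72.5. The members and lists were chosen with earlier results of these data known.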

Additional observations from a re-analysis of the deposited data

Results flagged for a closer look

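The effect of DAC differed with and without ATRA for 2 members by the interaction term of limma. CTSL had an interaction of 1.98 (log2, adjusted p = 0.000451): its DAC change was 1.97 with ATRA present and -0.01 without it. CTSB had an interaction of -0.92 (adjusted p = 0.00392), from DAC changes of -0.46 and 0.46. Leaving out each library in turn kept the CTSL call in all 12 fits and lost the CTSB call in 6. Groups of 3 libraries were not searched for single outlying values.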

How the results depend on the processing

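All counts concern tested members called at an adjusted p under 0.01. For DAC against untreated (7), DESeq2 called 13, the GC trend removed from each library 12, leaving out DAC replicate 3 and ATRA replicate 1 14, an adjusted p under 0.05 16, and a change over 2-fold also required 2. For ATRA against untreated (20) the 2-fold requirement gave 12, and for DAC+ATRA against DAC (15) it gave 6. For DAC+ATRA against ATRA (9), DESeq2 called 14, a fit of only the compared groups 16, leaving out both libraries 17, an adjusted p under 0.05 18 and the 2-fold requirement 4. For the interaction (2), DESeq2 called 4, leaving out both libraries 6, the GC trend removed 4, an adjusted p under 0.05 5 and the 2-fold requirement 1. Leaving out each library in turn gave 6 to 13 members for DAC, 15 to 22 for ATRA, 22 to 28 for DAC+ATRA, 13 to 16 against DAC, 7 to 16 against ATRA and 1 to 3 for the interaction; DAC replicate 3 decided the 13 and the 16. Of the called members, 6 of 7, 14 of 20, 21 of 28, 13 of 15, 6 of 9 and 1 of 2 stayed called in all 12 such fits. The TFEB change with DAC (-0.07) ranged from -0.24 to 0.10 when a library was left out, and turned to 0.11 for the leading transcript row, 0.07 without untreated replicate 3, and 0.10 without DAC replicate 3, alone or with ATRA replicate 1. Calls over all genes moved too: for DAC from 848 to 1214 with DESeq2, 1206 with the GC trend removed and 1650 without both libraries, and for DAC+ATRA against ATRA from 1270 to 1624 with DESeq2 and 1929 without both. An adjusted p under 0.05 gave 1638 genes for DAC, 2244 against ATRA and 386 for the interaction. The 2-fold requirement left 361 for DAC, 1561 for ATRA, 1085 against DAC, 536 against ATRA and 133 for the interaction. A fit of only the compared groups gave 1381 against ATRA. For the interaction (170), DESeq2 called 334, the GC trend removed 296 and leaving out both libraries 421. The causes were not tested. Samples share only a replicate number: the correlations of same-numbered deviations ran from -0.26 to 0.11, and with a replicate block the interaction called 1 member in place of 2. Depth of 4.67 M reads limits members of few counts, such as ACP2, PPT1 and MANBA.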
